A study of Homo sapiens with 18 samples.

Results

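The genes described here are 7 members of the Krüppel-like factor (KLF) family of transcription factors, KLF2, KLF3, KLF6, KLF10, KLF11, KLF13 and KLF16, taken by name from a deposited table of 14079 gene symbols that lists 13 KLF genes in all. The assay was CAGE (cap analysis of gene expression), in which a capped RNA is read as a short tag at its 5′ end, in 18 libraries of total RNA from the human acute myeloid leukaemia cell lines OCI-AML2 and OCI-AML3, labelled AML2 and AML3. Each line had 3 libraries with vehicle (DMSO), 3 with JQ1 and 3 with OTX015, so that the groups are AML2 vehicle, AML2 JQ1, AML2 OTX015, AML3 vehicle, AML3 JQ1 and AML3 OTX015. The title of the series places the work in BET inhibition and mutant NPM1 (NPM1c+). As background, OCI-AML3 carries an NPM1 mutation that sends the protein to the cytoplasm and OCI-AML2 does not, while the labels give no genotype. JQ1 and OTX015 are thienotriazolodiazepines that occupy the bromodomains of BET proteins, which read acetylated chromatin. JQ1 ends in a tert-butyl ester and OTX015 in a hydroxyphenyl amide. Dose and treatment time are not given in the labels, so it is not known whether they were matched between the compounds. Each line is a single cell line, and nothing in the labels says that the 3 libraries of a group came from separate cultures. The p-values therefore measure the spread between these libraries, which may be technical.

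KLF proteins share a C-terminal domain of zinc fingers that binds GC-rich and CACCC elements, and differ in the N-terminal domains that recruit coactivators or corepressors. KLF2 and KLF6 act mainly as activators. KLF3 recruits the corepressor CtBP, and KLF10, KLF11, KLF13 and KLF16 bind the SIN3A corepressor. In blood cells KLF2 is known for holding lymphocytes and monocytes quiescent, KLF6 for inflammatory gene expression in macrophages, and KLF10 and KLF11 as early targets of TGF-beta.

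In both lines KLF2 and KLF10 rose and KLF16 fell with either compound. KLF2 had almost no tags in AML2 with vehicle, was clearly tagged in AML3 with vehicle, and reached overlapping levels in the 4 groups given a compound. KLF13 was likewise lower in AML2 than in AML3 with vehicle. Its rise was large in AML2, small with JQ1 in AML3 and short of the threshold with OTX015 in AML3. KLF6 rose in AML3 with either compound, and in AML2 it passed the threshold with OTX015. KLF3 passed no test and KLF11 had too few tags to be tested.

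The promoters of 4 of these genes are shown because the tags start near them, on one strand or on both, though not always within the printed bases. Each line gives 150 bases upstream of the annotated start, ending beside it for KLF13 and KLF16 and short of it for KLF2 and KLF6, from RefSeq promoters of GRCh38.p14, 5′ to 3′ on the strand of the gene, with motif matches in capitals.
KLF2: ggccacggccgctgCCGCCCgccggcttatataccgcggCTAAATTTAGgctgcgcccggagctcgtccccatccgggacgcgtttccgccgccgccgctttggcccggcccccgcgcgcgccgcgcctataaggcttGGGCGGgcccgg
KLF6: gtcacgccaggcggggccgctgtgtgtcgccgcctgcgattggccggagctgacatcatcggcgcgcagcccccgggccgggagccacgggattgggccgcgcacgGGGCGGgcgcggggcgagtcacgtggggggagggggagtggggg
KLF13: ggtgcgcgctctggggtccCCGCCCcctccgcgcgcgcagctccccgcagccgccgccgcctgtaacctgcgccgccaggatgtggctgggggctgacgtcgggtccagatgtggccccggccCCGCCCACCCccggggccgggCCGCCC
KLF16: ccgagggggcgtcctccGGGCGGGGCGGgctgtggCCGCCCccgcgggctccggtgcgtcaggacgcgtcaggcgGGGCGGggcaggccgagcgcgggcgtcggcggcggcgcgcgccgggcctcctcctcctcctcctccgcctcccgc

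These windows lie at chr19:16324667-16324816 on the plus strand for KLF2, chr10:3785282-3785431 on the minus strand for KLF6, chr15:31326685-31326834 on the plus strand for KLF13 and chr19:1863580-1863729 on the minus strand for KLF16. The capitals mark 3 motifs searched on both strands. The GC box is GGGCGG, which appears as its reverse complement where it lies on the other strand, the CACCC box is named by its letters, and the MEF2 box is the AT-rich run in capitals in KLF2. In KLF13 a GC box and a CACCC box share bases, and in KLF16 a pair of GC boxes overlap. The GC content of the windows was 75.3% for KLF2, 78.7% for KLF6, 82.0% for KLF13 and 85.3% for KLF16. The MEF2 box of KLF2 began 120 bases before its RefSeq start. As background, MEF2 factors downstream of the kinases MEK5 and ERK5 act on the KLF2 promoter. Over 35116 RefSeq promoters, the 250 bases before the start held the exact letters of this MEF2 box in 20, which is 0.0570% of them. The GC box was in 42.6% and the CACCC box in 54.7%. Other forms of a MEF2 site were not searched, so the first share is not that of promoters with a MEF2 site. In that longer window the GC box occurred 4 times in KLF2, 2 times in KLF6, 3 times in KLF13 and 7 times in KLF16. The GC box is common and its presence in all 4 promoters does not set them apart. A match describes letters and shows no binding.

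The libraries held 303883 to 2163106 gene tags, and between 64 and 357 of them lay at the 7 KLF genes. The library numbered 3 was the shallowest of its group in all 6 groups, and in AML3 with a compound its scaling factor was 1.49 to 1.55 against 1.09 to 1.19 in the other libraries given the same compounds. Of 8 myeloid marker genes fixed for a check of the labels, 7 were in the table. Their summed level ran from 897 to 1736 CPM in AML2 with vehicle, 838 to 1178 CPM with a compound, 1239 to 1424 CPM in AML3 with vehicle and 424 to 639 CPM with a compound. The markers MPO of myeloid cells, CD3D, CD3E, CD3G and CD8A of T cells and HBB, KLF1 and ALAS2 of erythroid cells were not listed, ANPEP had no tag in AML2, and the listed B cell markers CD79A and PAX5 summed to at most 2.90 CPM in AML2 and 0 in AML3. The part of the falling myeloid markers of AML3 in the KLF values below was not tested. Levels are in CPM, the count per 1e+06 tags of a library after scaling by its TMM factor. Each capped RNA gives a tag whatever its length, so levels can be set side by side between genes. The tables cannot tell more tagged cells from more RNA per cell.

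**Figure D1:**
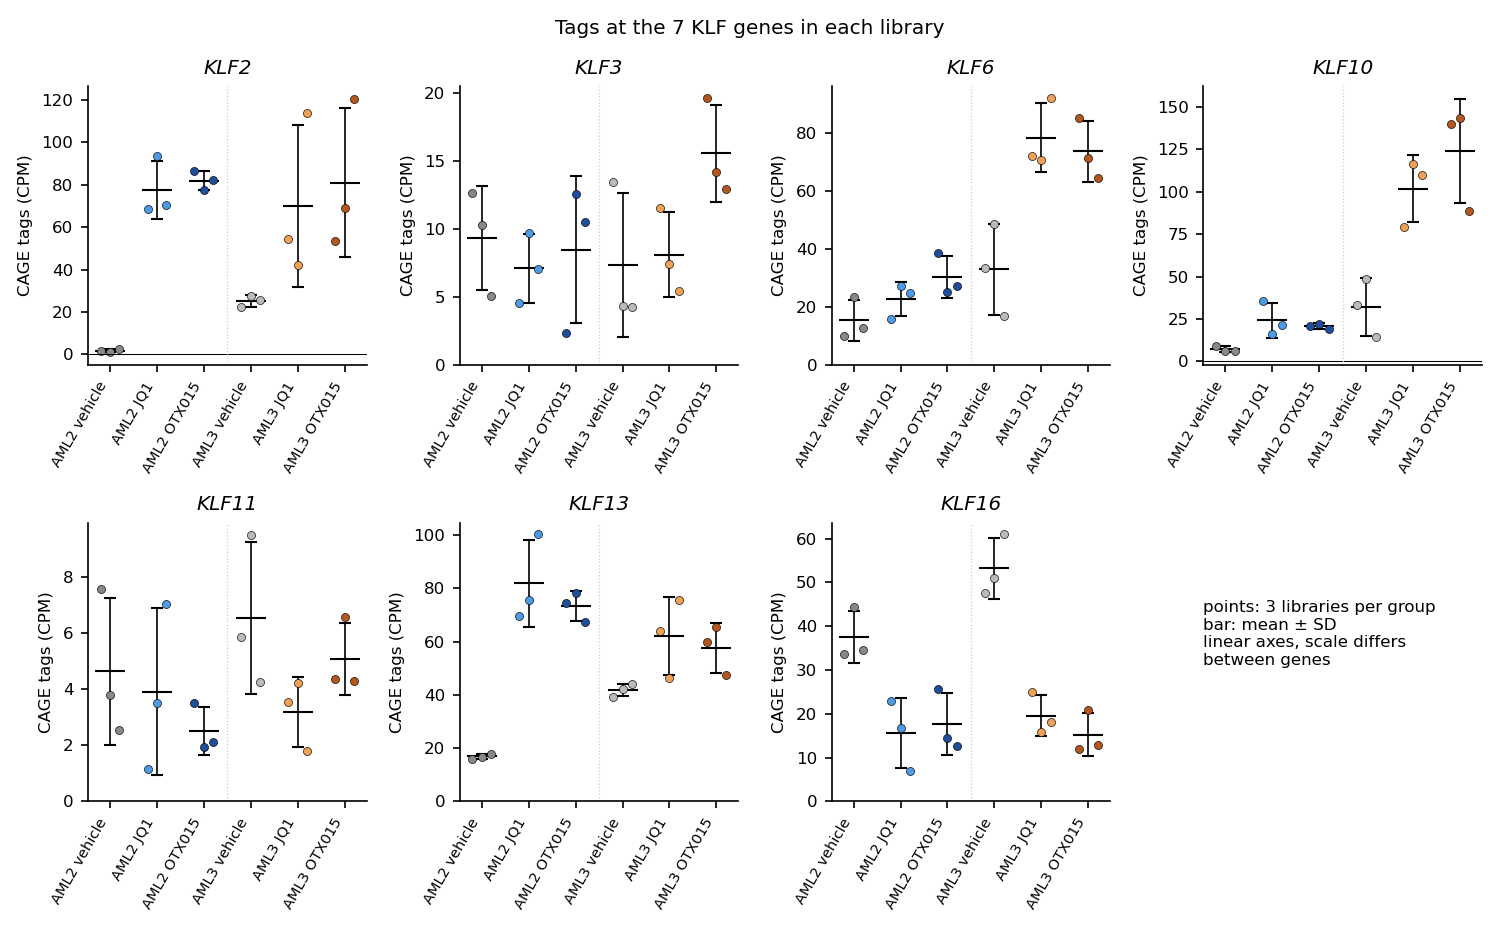
Tags at each KLF gene in CPM, on linear axes that differ between genes, with 1 point per library and the mean ± SD of the 3 libraries of each group. KLF2 runs from 1.78 CPM in AML2 with vehicle to between 70.1 and 82.0 CPM in the 4 groups given a compound, while KLF16 is highest with vehicle in both lines.

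KLF2, an activator that restrains inflammatory genes in myeloid cells, had 2 tags in each of the 3 AML2 vehicle libraries, which is 1.69, 1.08 and 2.56 CPM. With JQ1 the AML2 libraries held 68.5, 93.4 and 70.6 CPM, and with OTX015 they held 86.4, 77.4 and 82.1 CPM. Every library given a compound lay far above every vehicle library. The log2 fold change was 5.52 ± 0.47 (SE) with JQ1 (adjusted p = 3.38e-09, edgeR) and 5.58 ± 0.47 with OTX015 (adjusted p = 2.33e-09). Because the vehicle libraries held 6 tags in all, the size of the rise is known only roughly. The summed tags gave ratios of 50.8 with a 95% counting interval of 22.9 to 140.01 for JQ1 and 51.9 with an interval of 23.4 to 143 for OTX015, which cover counting error only. Both compounds were compared with the same 3 vehicle libraries.

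In AML3 KLF2 was already tagged with vehicle, at 22.3, 27.7 and 25.5 CPM. The AML3 libraries held 54.2, 42.3 and 114 CPM with JQ1 and 53.5, 69.0 and 121 CPM with OTX015. The groups did not overlap, and the library numbered 3 was the highest with either compound. The rise was 1.41 ± 0.31 on the log2 scale with JQ1 (adjusted p = 0.000616) and 1.63 ± 0.31 with OTX015 (adjusted p = 0.000112). Without the libraries numbered 3 it was 0.98 and 1.30 (adjusted p = 0.00127 and 2.25e-05, edgeR). Between the lines with vehicle, KLF2 was 3.87 ± 0.54 higher in AML3 on the log2 scale (adjusted p = 4.78e-06). In the order of the 6 groups, the 4 groups given a compound overlapped with their neighbours, AML3 vehicle lay below them and AML2 vehicle lay below AML3 vehicle, both without overlap.

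KLF6, an activator that is induced by injury and inflammatory signals, had 10.1, 23.3 and 12.8 CPM in AML2 with vehicle. It had 15.98, 27.3 and 24.7 CPM with JQ1 and 38.5, 25.2 and 27.4 CPM with OTX015. The JQ1 libraries overlapped the vehicle libraries and the OTX015 libraries lay just above them. The difference with JQ1 was 0.47 ± 0.35 and did not pass (adjusted p = 0.321), and with OTX015 it was 0.89 ± 0.34 (adjusted p = 0.0401). That call was lost without AML2 vehicle replicate 1 or 3 or without AML2 OTX015 replicate 1 or 3, where the adjusted p ran from 0.0555 to 0.219.

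In AML3 KLF6 had 33.4, 48.5 and 17.0 CPM with vehicle. It had 72.0, 70.8 and 92.0 CPM with JQ1 and 85.2, 71.2 and 64.6 CPM with OTX015. All 6 libraries given a compound exceeded the 3 vehicle libraries. The rise was 1.17 ± 0.28 with JQ1 (adjusted p = 0.00118) and 1.12 ± 0.28 with OTX015 (adjusted p = 0.00169). With vehicle KLF6 was 1.06 ± 0.32 higher in AML3 than in AML2 (adjusted p = 0.0158), although the libraries overlapped, and this call was lost without AML2 vehicle replicate 1 or 3 or AML3 vehicle replicate 2 (adjusted p = 0.0523 to 0.163).

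KLF3, a repressor that works through CtBP, was low throughout. Its group means ran from 7.11 ± 2.57 CPM (SD, n = 3) in AML2 with JQ1 to 15.6 ± 3.57 CPM in AML3 with OTX015. AML3 libraries held 13.5, 4.33 and 4.25 CPM with vehicle and 19.7, 14.2 and 12.9 CPM with OTX015, which overlap through the library numbered 1 with vehicle. That difference was 0.94 ± 0.47 and did not pass (adjusted p = 0.0943). It passed without AML3 vehicle replicate 1, at 1.85 (adjusted p = 0.0130), and without scaling factors, at 1.41 (adjusted p = 0.0194). In the other 3 drug comparisons the differences of KLF3 ran from -0.42 to 0.06.

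KLF10, a repressor named for its early induction by TGF-beta, had 9.27, 5.97 and 6.39 CPM in AML2 with vehicle. With JQ1 it had 35.4, 15.9 and 21.2 CPM and with OTX015 21.0, 22.3 and 18.9 CPM. The libraries given a compound lay above all vehicle libraries. The rise was 1.73 ± 0.42 with JQ1 (adjusted p = 0.00246) and 1.54 ± 0.44 with OTX015 (adjusted p = 0.00643).

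In AML3 KLF10 had 33.4, 48.5 and 14.2 CPM with vehicle, and the library numbered 3 was the low one. The compounds gave 79.1, 116 and 110.03 CPM with JQ1 and 139.8, 143 and 88.3 CPM with OTX015, the highest group means of the 7 genes, although KLF2 was higher in the AML3 libraries numbered 3. The rise was 1.59 ± 0.28 with JQ1 (adjusted p = 6.69e-05) and 1.91 ± 0.28 with OTX015 (adjusted p = 4.8e-06), close in size to those of AML2. With vehicle KLF10 was 2.21 ± 0.39 higher in AML3 than in AML2 (adjusted p = 9.29e-05). The JQ1 and OTX015 libraries overlapped in both lines.

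KLF11, also known as a TGF-beta inducible repressor, held 78 tags over the 18 libraries and did not reach the count filter. Its group means ran from 2.51 ± 0.86 CPM in AML2 with OTX015 to 6.54 ± 2.70 CPM in AML3 with vehicle. The groups overlapped with their neighbours in order of level. Its mean was lower with either compound than with vehicle in both lines. With JQ1 in AML3 its libraries held 3.56, 4.23 and 1.80 CPM, below the 5.86, 9.52 and 4.25 CPM with vehicle. When all genes were tested without a filter, the difference of KLF11 with a compound ran from -0.97 to -0.37 and its adjusted p from 0.198 to 0.686.

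KLF13, which binds SIN3A and is known in T cells as an activator of CCL5, had closely spaced vehicle libraries. Those of AML2 held 16.01, 16.8 and 17.9 CPM with vehicle, 69.6, 75.8 and 100.5 CPM with JQ1 and 74.7, 78.4 and 67.4 CPM with OTX015. The rise in AML2 was 2.26 ± 0.23 with JQ1 (adjusted p = 8.53e-08) and 2.13 ± 0.24 with OTX015 (adjusted p = 1.56e-07), with no overlap.

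In AML3 KLF13 held 39.3, 42.4 and 44.0 CPM with vehicle, 64.0, 46.5 and 75.8 CPM with JQ1 and 60.1, 65.7 and 47.4 CPM with OTX015. Again no library given a compound fell among the vehicle libraries, but the lowest of each compound lay just above them. The rise of 0.55 ± 0.22 with JQ1 passed narrowly (adjusted p = 0.0342) and the difference of 0.50 ± 0.22 with OTX015 did not (adjusted p = 0.0554). Neither call was firm: the first was lost without any 1 of 5 libraries (adjusted p = 0.0527 to 0.140), without a count filter, without the libraries numbered 3, in a fit of the compared groups alone and with DESeq2 (adjusted p = 0.0614, 0.0786, 0.0560 and 0.0558), and the second was gained without AML3 OTX015 replicate 3, without the libraries numbered 3, without scaling factors and with the replicate number as a block (adjusted p = 0.0363, 0.0156, 0.00277 and 0.0474). With vehicle KLF13 was 1.30 ± 0.24 higher in AML3 than in AML2 (adjusted p = 0.000204).

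KLF16, a SIN3A-binding repressor, was the only one of the 6 tested genes that fell with either compound in both lines. AML2 libraries held 33.7, 44.5 and 34.5 CPM with vehicle, 22.8, 16.7 and 7.06 CPM with JQ1 and 25.7, 14.5 and 12.6 CPM with OTX015. KLF16 fell by 1.21 ± 0.31 with JQ1 (adjusted p = 0.0034) and by 1.07 ± 0.31 with OTX015 (adjusted p = 0.00734). The OTX015 call was lost without AML2 OTX015 replicate 2, where the difference was -0.90 (adjusted p = 0.0559).

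In AML3 KLF16 held 47.5, 51.0 and 61.0 CPM with vehicle, 24.9, 15.9 and 18.04 CPM with JQ1 and 12.01, 20.8 and 12.9 CPM with OTX015. All 6 libraries given a compound lay below the vehicle libraries. KLF16 fell by 1.39 ± 0.29 with JQ1 (adjusted p = 0.000362) and by 1.74 ± 0.31 with OTX015 (adjusted p = 5.32e-05). The lines did not overlap with vehicle, but their difference of 0.46 ± 0.25 did not pass (adjusted p = 0.212).

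**Figure D2:**
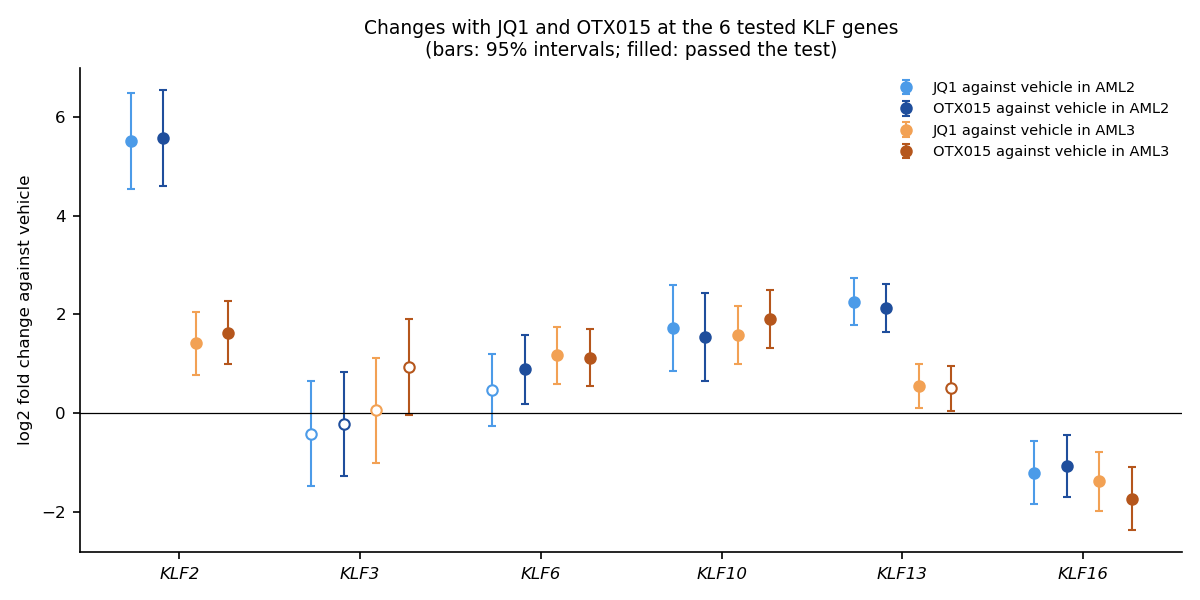
Log2 fold change against vehicle of the 6 tested KLF genes for JQ1 and OTX015 in AML2 and AML3, with 95% intervals and filled symbols where the test was passed. KLF2 stands at 5.52 and 5.58 in AML2 against 1.41 and 1.63 in AML3, and KLF16 is below 0 in all 4 comparisons.

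Counted together, the 6 tested genes gave 3 rises and 1 fall with JQ1 in AML2, where 17.2% of the 10031 genes tested rose and 17.4% fell. With OTX015 in AML2 4 rose and 1 fell, against 20.5% and 19.9% of all genes. In AML3 4 rose and 1 fell with JQ1, against 26.8% and 24.1%, and 3 rose and 1 fell with OTX015, against 28.8% and 26.1%. Between the lines with vehicle, 4 of 6 were higher in AML3 and 0 lower, where 11.4% of genes were higher and 11.7% lower. The median log2 fold change of the 6 genes was 1.10 with JQ1 and 1.22 with OTX015 in AML2, 0.86 and 1.03 in AML3 and 1.18 between the lines. The median of all genes lay between -0.04 and 0.04, where TMM scaling keeps it. It was higher without scaling factors, as given in the closing section. KLF11 and the filter make these 6 a selection of the 7 genes. Summed over all 7 genes, AML2 had 92.9 ± 12.1 CPM under vehicle, 233 ± 13.0 under JQ1 and 235 ± 15.8 under OTX015. For AML3 the sums were 199 ± 31.0, 343 ± 63.8 and 372 ± 20.1 CPM.

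The response to the compounds differed between the lines for 2 of the 6 genes, KLF2 and KLF13, both responding less in AML3. The effect of JQ1 on KLF2 in AML3 minus that in AML2 was -4.10 ± 0.63 on the log2 scale (adjusted p = 0.00012), and for OTX015 it was -3.95 ± 0.63 (adjusted p = 0.000168). Without the libraries numbered 3 these were -4.91 and -4.57, more than 1.5 times further apart on the linear scale. For KLF13 the differences were -1.70 ± 0.32 with JQ1 (adjusted p = 0.00105) and -1.63 ± 0.32 with OTX015 (adjusted p = 0.0016). Of all genes tested, 3.92% had a lower and 3.02% a higher log2 effect of JQ1 in AML3 than in AML2, and 4.81% and 2.84% of OTX015. These shares go by sign, so the lower ones include genes that fell further in AML3. The other 4 genes did not pass in either test, with differences from -0.67 to 1.15 and adjusted p from 0.352 to 0.918. The widest of their intervals, for KLF3 with JQ1, ran from -1.03 to 1.97.

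OTX015 and JQ1 were compared with each other in 12 tests over the 6 genes and 2 lines, and 0 passed. No gene of the whole table passed in either line with edgeR (0%), with 331 in AML2 and 253 in AML3 at an unadjusted p under 0.05, none of them a KLF gene described here. DESeq2 called 1 gene in AML2 and 0 in AML3. For KLF2 the difference of OTX015 from JQ1 was 0.06 in AML2 with a 95% interval of -0.51 to 0.64 and 0.22 in AML3 with an interval of -0.38 to 0.82. KLF13 gave the narrowest intervals, -0.55 to 0.30 in AML2 and -0.50 to 0.39 in AML3. The largest difference was 0.88 for KLF3 in AML3, where the libraries did not overlap, with an interval of -0.14 to 1.90. These intervals bound the difference between the compounds, and an adjusted p of 1 does not show that they act alike.

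The KLF genes differed in how many start clusters held their tags. For each gene a single set of promoter clusters on its strand had counts that added up exactly to the gene's counts in all 18 libraries. KLF2, KLF11 and KLF16 had 2 clusters, KLF6 had 3, KLF10 had 4, KLF3 had 8 and KLF13 had 12. These are not numbers of separate promoters, since clusters lay as close as 6 bases in KLF2 and 3 bases in KLF6. Several held few tags, such as 1 of KLF13 with 3 tags, 65568 bases from its leading cluster. The leading cluster held 98.5% of the tags of KLF2, 96.2% of KLF11, 94.8% of KLF10, 78.2% of KLF13, 75.5% of KLF16 and 75.0% of KLF6. KLF3 was the exception, with 30.4% in its leading cluster.

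**Figure D3:**
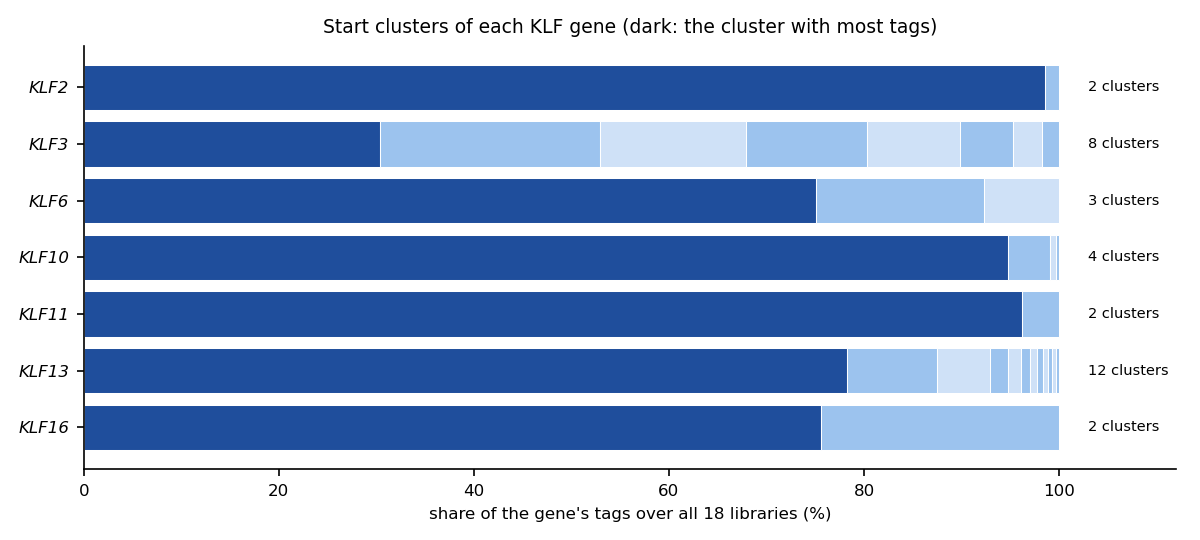
Share of each KLF gene's tags, in percent over all 18 libraries, in each of its start clusters, with the leading cluster in dark blue. KLF2 draws 98.5% of its tags from 1 cluster and KLF3 30.4%.

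The leading cluster of KLF2 (hg19 chr19:16435625-16435682, plus strand) held 0 to 2.61 CPM in AML2 with vehicle and 68.8 CPM or more in that line with a compound. It rose by 5.996 ± 0.54 with JQ1 and 6.05 ± 0.54 with OTX015 in AML2 (adjusted p = 3.26e-09 and 2.09e-09), where 17.1% and 20.5% of the 12867 promoters tested rose. In AML3 its rise was 1.45 ± 0.34 and 1.66 ± 0.34, against 26.5% and 28.4% of promoters. The leading cluster of KLF6 (hg19 chr10:3827389-3827408, minus strand) rose by 1.28 ± 0.31 with JQ1 and 1.17 ± 0.32 with OTX015 in AML3. Its second cluster, 9 bases away, gave 0.54 ± 0.45 and 0.52 ± 0.47 and did not pass. For KLF13 the leading cluster rose by 2.44 ± 0.27 and 2.26 ± 0.27 in AML2 and did not pass in AML3, at 0.52 ± 0.25 with JQ1 (adjusted p = 0.0805) and 0.40 ± 0.25 with OTX015. That of KLF16 fell by 1.24 ± 0.34 and 1.10 ± 0.34 in AML2 and by 1.27 ± 0.32 and 1.55 ± 0.34 in AML3, where 18.1%, 20.0%, 23.8% and 25.8% of promoters fell.

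Clusters on the opposite strand within 1000 bases upstream of the leading cluster were then listed, a window chosen after the values were seen. KLF2 had 1, at hg19 chr19:16435475-16435483 on the minus strand, 142 bases from its leading cluster. Its counts equalled those of the antisense gene AC020911.2, and in RefSeq the divergent transcript KLF2-DT starts 156 bases from KLF2, inside the window printed above. This cluster had 0 tags in all 6 vehicle libraries. It had 3.44, 1.78 and 5.33 CPM with JQ1 and 3.53, 2.93 and 8.52 CPM with OTX015 in AML2. In AML3 it had 7.23, 10.7 and 20.4 CPM with JQ1 and 14.5, 11.2 and 24.4 CPM with OTX015. All 12 libraries given a compound held tags of it, and the AML3 libraries held more. No p is given for it. With 0 vehicle tags it met the count filter only through libraries given a compound, so the filter set the direction of a test. Against a floor of 3 tags in the vehicle group, it was 3.85-fold and 5.26-fold higher in AML2 with JQ1 and OTX015. The values for AML3 were 13.1-fold and 17.7-fold. These ratios leave out the counting error of the tags with a compound. In AML3 with vehicle the gene strand of KLF2 was tagged at about 25 CPM while this strand had no tag.

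KLF6 had 4 such clusters, and a single 1 of them, at hg19 chr10:3827738-3827754 on the plus strand and 330 bases from the leading cluster, held 697 tags, more than the 693 of KLF6 itself. It matched no gene of the table. In AML2 it held 2.61, 5.05 and 5.22 CPM with vehicle, 24.1, 21.3 and 46.2 CPM with JQ1 and 41.2, 46.8 and 51.1 CPM with OTX015. In AML3 it held 4.20, 3.53 and 5.73 CPM with vehicle, 97.6, 83.6 and 123 CPM with JQ1 and 76.9, 124 and 124 CPM with OTX015. The lines were level with vehicle and the AML3 libraries were the higher ones with a compound. It rose by 2.70 ± 0.39 and 3.37 ± 0.37 in AML2 and by 4.50 ± 0.35 and 4.60 ± 0.35 in AML3 (adjusted p = 6.21e-06, 6.82e-08, 3.01e-10 and 1.33e-10). On the gene strand in AML2 the leading cluster alone gave 0.27 ± 0.42 with JQ1 and 0.95 ± 0.39 with OTX015, neither past the threshold (adjusted p = 0.656 and 0.0523), while KLF6 over its 3 clusters gave 0.47 and 0.89 and passed with OTX015 (adjusted p = 0.321 and 0.0401). The difference between the strands was not tested.

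KLF13 had 4 clusters on the opposite strand, each with too few tags for the test. They summed to 2.01 ± 0.52 CPM in AML2 with vehicle, 14.9 ± 2.38 with JQ1 and 9.96 ± 3.09 with OTX015. For AML3 the sums were 4.89 ± 1.12, 15.3 ± 4.36 and 24.5 ± 8.31 CPM. No library given a compound overlapped the vehicle libraries of its line. KLF10 had 13 tags on the opposite strand in all, and KLF3, KLF11 and KLF16 had no cluster in that upstream window. The gene table does list KLF3-AS1, on the opposite strand, whose annotated start lies 687 bases from that of KLF3.

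**Figure D4:**
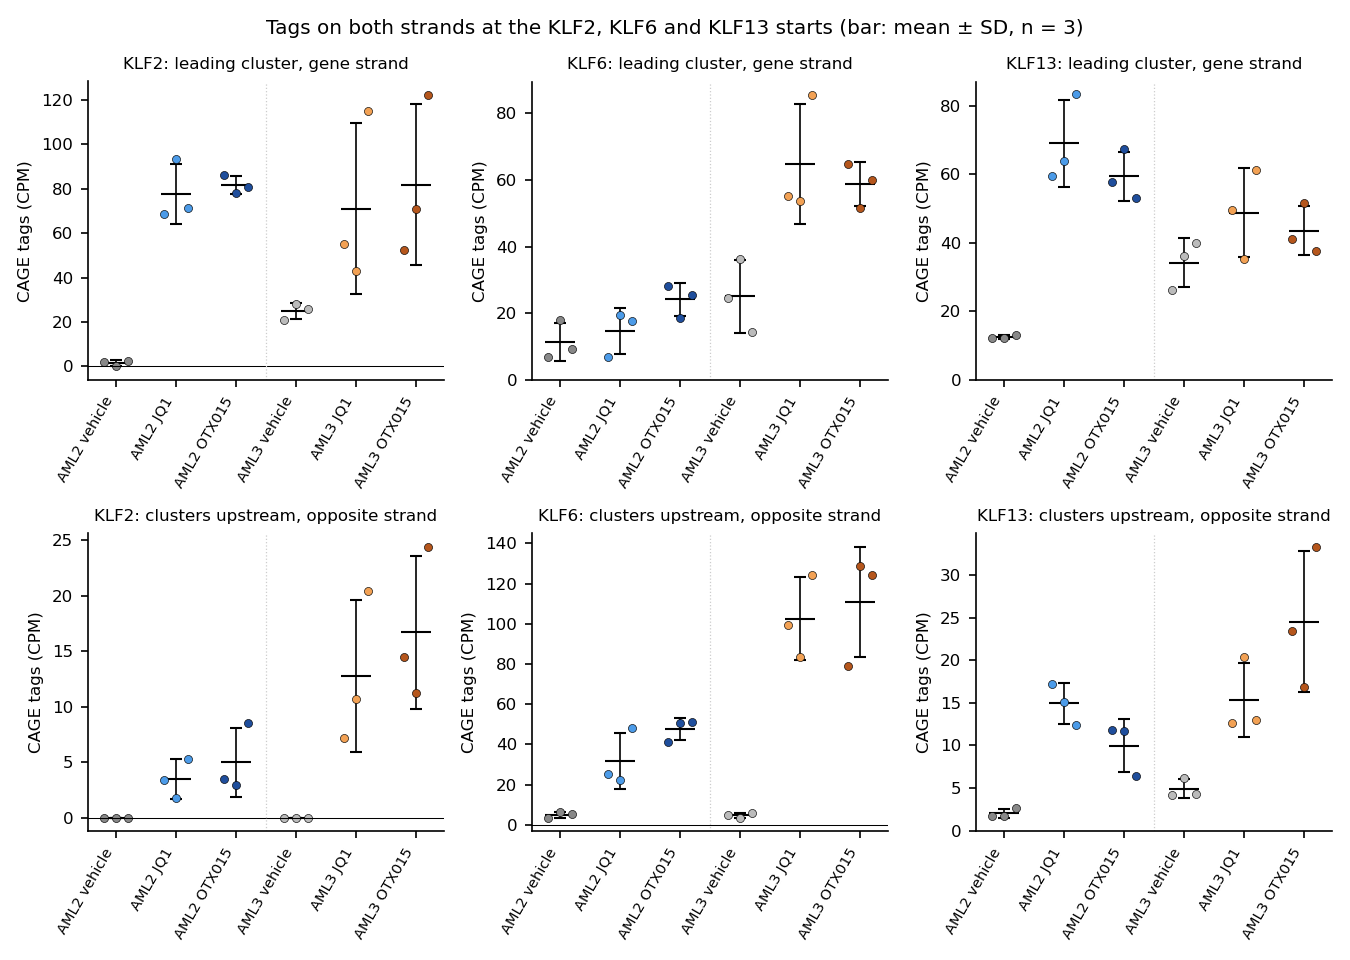
Tags in CPM per library at the leading start cluster of KLF2, KLF6 and KLF13 (upper row) and summed over the clusters upstream on the opposite strand (lower row), with the mean ± SD of 3 libraries. The opposite strand of KLF2 is at 0 in all vehicle libraries, and that of KLF6 rises from 4.69 to 111 CPM in AML3 with OTX015.

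Enhancers, counted as paired tag clusters away from promoters, were looked for within 100 kb of the start of each KLF gene. Only enhancers named without a build were searched. Of these 4 had enough tags to be tested among 849 in all, near KLF11, KLF13 and KLF16. An enhancer inside an intron of KLF16 (hg38 chr19:1855248-1855766), 8061 bases from its start, held 6, 18 and 2 tags in AML2 with vehicle, 2, 0 and 0 with JQ1 and 0, 3 and 0 with OTX015. In AML3 it held 33, 31 and 12 tags with vehicle, 4, 0 and 5 with JQ1 and 4, 2 and 1 with OTX015. This enhancer and the start of KLF16 were both lower with either compound in both lines. It fell by 2.90 ± 0.86 and 2.29 ± 0.80 in AML2 and by 2.55 ± 0.55 and 2.75 ± 0.58 in AML3 (adjusted p = 0.00983, 0.0273, 6.2e-05 and 3.3e-05). In AML2 the summed tags gave ratios of 0.111 with a counting interval of 0.0128 to 0.444 for JQ1 and 0.182 with an interval of 0.0353 to 0.594 for OTX015. Enhancers that fell were few, 1.88% and 2.47% in AML2 and 4.48% and 4.83% in AML3.

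An enhancer 60343 bases upstream of KLF13 (hg38 chr15:31266255-31266769), outside any annotated gene, had 0 tags in AML2 with vehicle, 8, 5 and 2 with JQ1 and 6, 8 and 0 with OTX015. Against a floor of 3 tags it was 7.22-fold and 7.36-fold higher, which leaves out the counting error of the tags with a compound. No p is given for this rise. The enhancer met the count filter only through AML2 libraries given a compound, so the filter set the direction of the test. Of all enhancers tested, 11.4% and 16.5% rose in AML2. In AML3 it had 4 tags with vehicle, 0 with JQ1 and 1 with OTX015 and did not pass. The enhancer near KLF11, 77702 bases downstream and over an exon of RRM2, did not pass in any drug comparison, nor did a second enhancer near KLF16. Among the enhancers named without a build, none lay within 100 kb of KLF2.

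Of the other KLF genes in the table, 4 were tested and 3 of them, KLF4, KLF5 and KLF12, rose in at least 1 comparison in each line, with KLF7 rising in 1 comparison only. By comparison, 3 of the 4 rose with JQ1 and 2 with OTX015 in AML2, and 2 and 3 in AML3. Of all genes tested, 17.2% and 20.5% rose in AML2 and 26.8% and 28.8% in AML3. KLF4, a close relative of KLF2 that promotes monocyte differentiation, held 0.84, 1.08 and 3.83 CPM in AML2 with vehicle, 12.6, 17.6 and 102 CPM with JQ1 and 28.0, 18.4 and 82.1 CPM with OTX015. In AML3 it held 12.3, 14.7 and 7.09 CPM with vehicle, 39.1, 46.5 and 166 CPM with JQ1 and 65.5, 64.6 and 187 CPM with OTX015. The library numbered 3 was by far the highest in each group given a compound. KLF4 rose by 4.49 ± 1.02 and 4.46 ± 1.03 in AML2 and by 2.69 ± 0.66 and 3.05 ± 0.66 in AML3. Without the libraries numbered 3 the AML2 rise with JQ1 was 3.86 and the AML3 rises were 1.67 and 2.27, all past the threshold.

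KLF5, an activator of proliferation genes in epithelia and of granulocyte genes, had no tag in AML3 with vehicle. It was at least 6.34-fold higher there with JQ1 and 7.26-fold with OTX015, although 1 OTX015 library also had no tag. In AML2 it rose by 2.02 ± 0.66 with JQ1 (adjusted p = 0.0194) and missed the threshold with OTX015 at 1.68 ± 0.70 (adjusted p = 0.0582). That call was gained with the replicate number as a block, with DESeq2, without a count filter and without AML2 vehicle replicate 2 or AML2 OTX015 replicate 2 (adjusted p = 0.0295, 0.0470, 0.0486, 0.0333 and 0.0358). KLF12, a CtBP-binding repressor like KLF3, rose with OTX015 by 1.82 ± 0.50 in AML2 and 1.82 ± 0.50 in AML3, and gave 0.86 ± 0.55 and 1.17 ± 0.54 with JQ1. KLF7 rose with JQ1 in AML2 only past the threshold (0.98 ± 0.38, adjusted p = 0.0462). KLF9 and KLF15 were too low to test. The median over the 4 genes was 1.502 with JQ1 and 1.75 with OTX015 in AML2 and 1.93 and 2.43 in AML3, or 1.91 and 2.34 with KLF5 set against that floor. The calls of KLF7, of KLF5 with JQ1 in AML2 and of KLF12 with OTX015 in AML3 were not firm, since each was lost without at least 1 library (adjusted p = 0.0505 to 0.141).

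**Figure D5:**
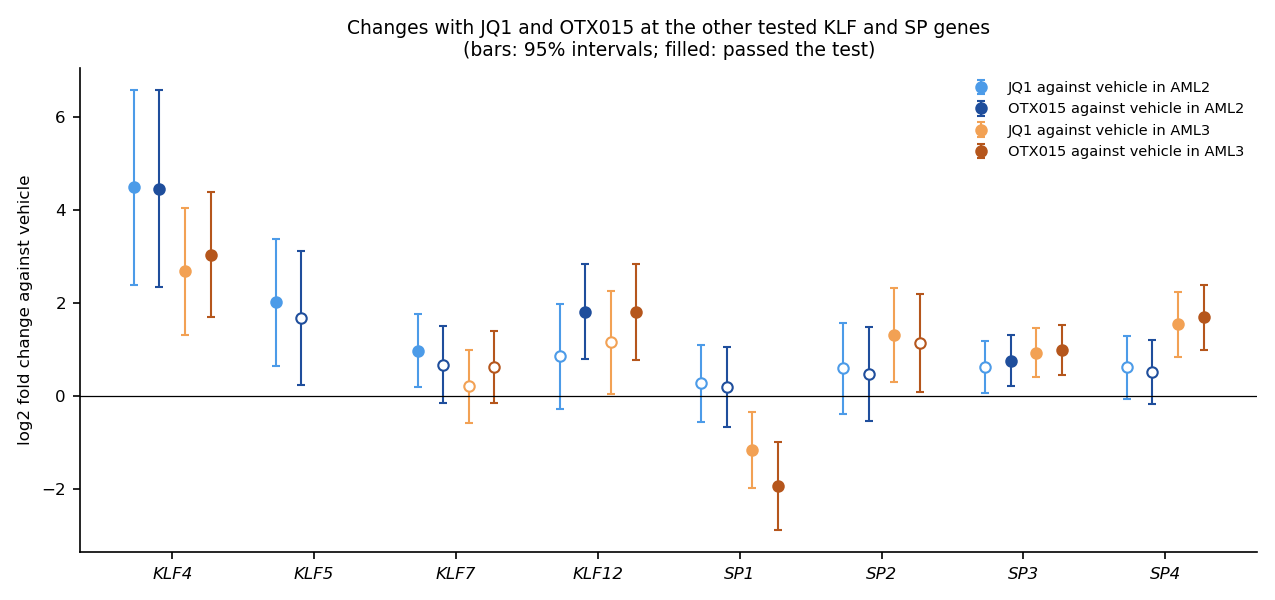
Log2 fold change against vehicle of the other tested KLF genes and of SP1 to SP4, with 95% intervals and filled symbols where the test was passed, leaving out KLF5 in AML3, whose vehicle libraries had no tag. KLF4 rises in all 4 comparisons and SP1 falls by 1.14 and 1.93 in AML3.

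The SP factors bind the same GC boxes as the KLF proteins. SP3, which can activate or repress, rose in AML3 by 0.94 ± 0.26 with JQ1 and 0.99 ± 0.26 with OTX015 and in AML2 with OTX015 by 0.77 ± 0.27. SP4 rose in AML3 by 1.55 ± 0.34 and 1.70 ± 0.34. SP1, the general activator of GC-box promoters, fell in AML3 by 1.14 ± 0.40 and 1.93 ± 0.46 and gave 0.28 ± 0.40 and 0.21 ± 0.42 in AML2. The test of a difference in the SP1 effect between the lines passed for OTX015 (adjusted p = 0.0357) and did not for JQ1 (adjusted p = 0.142). The first was lost when any 1 of 8 libraries was left out: AML2 vehicle replicate 1 or 2, AML2 OTX015 replicate 1, AML3 vehicle replicate 1 or 2, or any AML3 OTX015 replicate (adjusted p = 0.0551 to 0.158). SP2 rose with JQ1 in AML3 (1.32 ± 0.49, adjusted p = 0.0274) and gave 1.15 ± 0.51 with OTX015 (adjusted p = 0.0582). SP7, an osteoblast factor, was too low to test.

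Corepressors are partners of the KLF repressors. Among 13 such genes in AML2, JQ1 raised 1 and lowered 3 and OTX015 raised 2 and lowered 3. In AML3 the counts were 2 up and 1 down for JQ1 and 3 up and 1 down for OTX015, with medians between -0.05 and 0.18. Over all genes 17.2% rose and 17.4% fell with JQ1 and 20.5% and 19.9% with OTX015 in AML2, so the AML2 counts lie near the share of all genes. In AML3, where 26.8% and 28.8% of genes rose and 24.1% and 26.1% fell, they lie at or below it. CTBP2, which KLF3 and KLF12 recruit, rose in all 4 comparisons by 0.81 to 1.12, and the histone deacetylase HDAC2 fell in all 4, by 0.54 to 0.94. SIN3B, a paralogue of SIN3A, rose in AML3 by 1.21 ± 0.23 and 0.91 ± 0.24. SAP30 of the SIN3 complex fell in AML2 by 0.84 ± 0.23 and 1.03 ± 0.24. Of 4 coactivator genes, the acetyltransferases KAT2B and EP300 rose in all 4 comparisons, KAT2B by 2.75 to 3.11 and EP300 by 1.08 to 1.504. CREBBP rose in AML2 by 1.17 ± 0.39 and 1.37 ± 0.39, and KAT2A fell with JQ1 in AML2 by 2.59 ± 0.53 and with OTX015 in AML3 by 1.09 ± 0.43.

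TGF-beta, the ligand that induces KLF10 and KLF11, signals through its receptors to SMAD proteins. Of 13 genes of this pathway, JQ1 raised 10 and lowered 1 in AML2 and OTX015 raised 11 and lowered 0, while in AML3 the compounds raised 7 and 8 and lowered 0. Of all genes, 17.2% and 20.5% rose in AML2 and 26.8% and 28.8% in AML3. The medians were 1.10 and 1.21 in AML2 and 1.11 and 1.27 in AML3. The ligand TGFB1 rose by 1.90 ± 0.31 and 2.28 ± 0.31 in AML2 and by 1.11 ± 0.30 and 1.27 ± 0.30 in AML3. The receptor TGFBR2 rose by 1.30 to 2.19 in the 4 comparisons. Those that rose include inhibitors of the pathway: SKI, a repressor of SMAD targets, rose by 1.42 to 2.09, and SMURF2, a ubiquitin ligase for the receptors, rose by 2.81 ± 0.25 and 2.68 ± 0.25 in AML3. The medians of these lists stand beside a median of all genes that TMM scaling keeps near 0, and the lists were chosen with results of these data known.

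Of 6 tested genes of the MEK5, ERK5 and MEF2 route, which acts on KLF2, each compound raised 3 and lowered 0 in AML2, and in AML3 JQ1 raised 3 and OTX015 raised 2 while each lowered 1, with medians from 0.56 to 0.69. Against the 26.8% and 28.8% of all genes that rose and the 24.1% and 26.1% that fell in AML3, the AML3 counts of so few genes are near the background. In AML2 17.2% and 20.5% of all genes rose. The kinase gene MAP3K3, at the head of the route, rose by 1.16 to 1.94 in the 4 comparisons, and MAP3K2 rose in AML2 by 0.93 ± 0.24 and 1.25 ± 0.23. Of the MEF2 factors, MEF2A rose by 0.83 to 1.27 in the 4 comparisons. MEF2D fell in AML3 by 1.25 ± 0.26 and 1.33 ± 0.26 and gave -0.26 ± 0.26 and -0.57 ± 0.27 in AML2.

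Of 6 genes known as KLF targets that were tested in AML2, JQ1 raised 3 and OTX015 raised 4 while each lowered 1, and in AML3 each compound raised 2 and lowered 2. Of all genes, 17.2% and 20.5% rose and 17.4% and 19.9% fell in AML2, and the AML3 counts are near the 26.8% and 28.8% that rose and the 24.1% and 26.1% that fell in that line. Their medians were 1.44 and 2.07 in AML2, and in AML3 -0.61 and -0.90, or 0.47 and 0.53 with ITGB7 at a floor of 3 tags under a compound. THBD, thrombomodulin, which KLF2 activates in endothelium, fell in all 4 comparisons, by 1.78 to 3.56. With JQ1 in AML2 that rests on 2 tags, a ratio of 0.074 with a counting interval of 0.00866 to 0.285. ITGB7, an integrin gene of this target list, rose in AML2 by 1.99 ± 0.40 and 2.14 ± 0.40. In AML3 it held 5 tags with vehicle and 0 with either compound. CCL5, a target of KLF13, fell in AML3 by 2.46 ± 0.48 and 2.95 ± 0.51 and gave 0.01 ± 0.43 and -0.47 ± 0.44 in AML2. Without the libraries numbered 3 it also fell with JQ1 in AML2 (-0.69, adjusted p = 0.0105). SMAD7, an inhibitor of TGF-beta signalling, rose by 1.61 to 3.41 in the 4 comparisons, of which that with JQ1 in AML3 did not pass without the libraries numbered 3 (0.97, adjusted p = 0.118). Several calls of these list genes ended when any 1 of 1 to 5 libraries was left out: CTBP2, HDAC2, CREBBP and MEF2A with JQ1 in AML2, HDAC2, MEF2A, SMAD7, SP1 and SP2 with JQ1 in AML3, MEF2A, SP3 and THBD with OTX015 in AML2 and KAT2A with OTX015 in AML3 (adjusted p = 0.0532 to 0.275).

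Across the 18 libraries, the genes fell into pairs by their levels. The Pearson r of log2(CPM + 1) was 0.94 between KLF2 and KLF13 and 0.89 between KLF6 and KLF10, and KLF16 ran against KLF2 and KLF13 with r of -0.61 and -0.63. These values describe libraries that share 6 groups and carry no p. Among tested genes with a mean of at least 10 CPM, the most similar to KLF2 were LMNA (r = 0.96), BMP2 (0.96) and FAM43A (0.95), and to KLF13 they were C6orf47 (0.95), FAM43A (0.95) and KLF2. SPRY4, an inhibitor of receptor tyrosine kinase signalling, was among the 3 most similar to both KLF6 (0.94) and KLF10 (0.95), beside NSRP1 (0.95) and CRTC2 (0.93) for KLF6 and TM7SF2 (0.94) and KLHL29 (0.94) for KLF10. For KLF16 they included SERPINH1 and MTX1, each at 0.93. For the low genes the values were smaller, with ZNF410, IFT52 and SMAD5 at 0.67 to 0.75 for KLF3 and SMARCD2 at 0.79 and NCBP1 at 0.78 for KLF11.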

How the data were processed

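CAGE tags were measured in 18 libraries of 6 groups of 3. The authors deposited raw counts of tags for each gene symbol, promoter and enhancer. STAR and hg38 are named per the submitters' processing notes, while the counting tool and duplicate removal are not given in those sources. KLF promoter names carry hg19 coordinates, and enhancers without a build were read as hg38. No coordinate was converted, and genes were placed with GENCODE 29.

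Counts were fitted with edgeR 4.0.16 in R 4.3.3 (quasi-likelihood, 1 mean per group, all libraries, 12 residual degrees of freedom, TMM scaling, filterByExpr), which left 10031 genes and 12867 promoters. Enhancers needed 3 tags in 3 libraries. P-values are two-sided and Benjamini-Hochberg adjusted over all features of a table, with a threshold of 0.05. Printed adjusted p-values are edgeR's unless DESeq2 (1.42.0) is named. The scripts were tested on simulated data. The KLF genes, the gene lists and the tests were chosen with earlier results of these data known. Genes were named by rule: all 7 members, tested KLF and SP genes, up to 4 per list with the smallest adjusted p over the drug comparisons, and the 3 most similar genes per member, of which some are not reported here. Deviations of same-numbered libraries from the group means all correlated above 0.1 only between OTX015 and JQ1 (0.11 to 0.32 in AML2, 0.33 to 0.59 in AML3). There the same number gave the highest correlation in 1 of 3 cases in AML2 and 2 of 3 in AML3. Against vehicle in AML3 it did so in 3 of 3 for each compound, at 0.04 to 0.10. The libraries numbered 3 stood apart together. Between OTX015 and JQ1 they correlated at 0.59 in AML3 and 0.32 in AML2, where their highest correlation with another number was -0.45 and -0.21. Between a compound and vehicle they gave 0.08 to 0.16, against -0.06 to -0.04 at most with another number. The main fit has no term for this shared deviation, and its cause was not tested. For the numbers 1 and 2 these values do not show that libraries were paired. A block for the number changed no call between OTX015 and JQ1. Replicates of a group differed by 1.91 to 11.9 times the variance of sampling noise (chi-square per degree of freedom), so none is a duplicate. Alternatives were other scalings, no filter, DESeq2, the block, the compared groups alone and leaving libraries out.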

Additional observations from a re-analysis of the deposited data

Results flagged for a closer look

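The response to both compounds differed between the lines for KLF2 and KLF13, by an interaction test in edgeR adjusted over all genes. The effect of JQ1 on KLF2 was -4.10 ± 0.63 (log2, SE) in AML3 against AML2 (adjusted p = 0.00012) and that of OTX015 was -3.95 ± 0.63 (adjusted p = 0.000168). In AML2 with vehicle KLF2 rests on 6 tags in 3 libraries, so the size of this difference depends on few counts. For KLF13, which had 64 tags in AML2 with vehicle, the differences were -1.70 ± 0.32 with JQ1 (adjusted p = 0.00105) and -1.63 ± 0.32 with OTX015 (adjusted p = 0.0016). Both compounds share the vehicle libraries of each line, so the JQ1 and OTX015 values are not independent. Each difference also contains the vehicle gap between the lines, 3.87 for KLF2 and 1.30 for KLF13, higher in AML3. With JQ1 and OTX015, mean KLF2 was 77.5 and 82.0 CPM in AML2 and 70.1 and 81.0 CPM in AML3. Mean KLF13 was 82.0 and 73.5 CPM in AML2 and 62.1 and 57.7 CPM in AML3.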

How the results depend on the processing

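Of 770 values of the 6 tested KLF genes under the alternatives, 747 kept their direction and their side of the threshold, 17 lost and 6 gained a call, and 0 turned a called direction. The changed calls concern KLF3, KLF6, KLF13 and KLF16 and stand beside their results. The number of the 6 genes called stayed within 1.5 times under every alternative run. Counts over all genes moved more for the comparisons with few calls. With the libraries numbered 1 and 2 only, OTX015 against JQ1 gave 4 genes in AML2 and 1 in AML3 against 0, and the difference of the response between the lines gave 1263 genes for JQ1 against 696 and 1410 for OTX015 against 767. DESeq2 gave 1 gene for OTX015 against JQ1 in AML2. Leaving out 1 library gave 462 to 723 genes for the JQ1 difference, the lowest without AML2 JQ1 replicate 2. With the replicate number as a block the pairing changed 1 call of the 6 KLF genes, KLF13 with OTX015 in AML3 (0.51, adjusted p = 0.0474), and 2 of the other KLF genes, KLF5 with OTX015 in AML2 (1.62, adjusted p = 0.0295) and KLF4 in AML3 against AML2 with vehicle (2.91, adjusted p = 0.00053), all gained. Between other groups, the deviations of same-numbered libraries correlated at -0.09 to 0.22. Without scaling factors the median of all genes moved to between 0.11 and 0.51 in the line and drug comparisons. With the libraries numbered 1 and 2 only, CCL5 fell with JQ1 in AML2 (-0.69, adjusted p = 0.0105), where the fit of all libraries gave 0.01. The cause was not tested. Low tags limit KLF3, KLF11, the enhancers and KLF2 in AML2 with vehicle. Alternatives for the list genes, and for promoters and enhancers without the libraries numbered 3, were chosen after seeing the data. The 250 kb window raised the tested enhancers from 4 to 7.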
